A study of Homo sapiens with 9 samples.

Results

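The nuclear genes for subunits of complexes I to IV of the mitochondrial respiratory chain were followed in HCT116 cells, an established human colorectal carcinoma line, after transfection of small interfering RNAs (siRNAs). The genes were chosen by name: 33 NDUF genes of complex I, 4 SDH genes of complex II, 6 UQCR genes with CYC1 (7 in all) of complex III and 10 COX genes of complex IV. Of these 54 genes, 53 had a row among the 15354 rows of the deposited table, and all 53 passed the filter on low values. NDUFA7 had no row and is not analysed here. The control group received a commercial non-targeting siRNA and the other groups received siRNA A or siRNA B against the long non-coding RNA SNHG5, each at 25 nM by reverse transfection, with 3 libraries per group. All groups are cultures of this single line, and transcripts were read from bulk RNA, so less RNA per cell and fewer expressing cells cannot be told apart. Libraries held 15566530 to 23277549 reads.

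The target of both siRNAs was looked at first. In control libraries SNHG5 had 31.3, 22.1 and 25.9 CPM, a unit that gives the reads of a gene relative to the library total. The siRNA A libraries had 71.5, 58.8 and 67.3 CPM, and the siRNA B libraries 46.2, 50.3 and 46.1 CPM. Each of the 6 siRNA libraries was above each control library, where a knock-down would give lower values, and the log2 fold changes of 1.29 ± 0.13 (SE) for siRNA A and 0.83 ± 0.13 for siRNA B had limma adjusted p-values of 1.86e-05 and 0.00059. With library totals alone they were 0.93 and 0.63. The groups are therefore named by their labels throughout, and every direction below is drawn between libraries so labelled. CPM values printed here, SNHG5 included, were scaled by TMM (trimmed mean of M values) factors, which set the bulk of genes level between libraries. The factors were 1.10 to 1.19 for control, 0.850 to 0.914 for siRNA A and 0.948 to 1.04 for siRNA B. Without them, with library totals alone, the median of all 13893 genes tested lay at −0.34 (log2) for siRNA A against control and at −0.18 for siRNA B, in place of −0.02 and 0.0043, and directions below are relative to that bulk. Epithelial markers were present (EPCAM, KRT8, KRT18, KRT19, CDH1 and VIL1), with a summed level of 2079 to 2166 CPM in control, 2797 to 3433 CPM in siRNA A and 2382 to 2441 CPM in siRNA B libraries before TMM scaling. The sum follows the keratins, of which KRT8 had TMM-scaled group means of 788, 1654 and 1186 CPM in control, siRNA A and siRNA B, while the mean of EPCAM was 179, 122 and 163 CPM. The part of these levels in the members' values was not tested. CEACAM5 stayed under 1 CPM in every library, and 2 of the 9 epithelial markers had no row. Of 9 markers of blood, fibroblast and endothelial cells, 3 had a row, and their sum was 19.3 to 20.6, 10.6 to 13.4 and 9.62 to 10.6 CPM. That sum follows the fibroblast marker COL1A1, with TMM-scaled group means of 16.7, 11.9 and 9.23 CPM in control, siRNA A and siRNA B. The means of the blood marker CD68 were 0.71, 1.29 and 0.95 CPM, and PDGFRB stayed under 1 CPM in every library.

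The respiratory chain passes electrons from NADH and succinate to oxygen across the inner mitochondrial membrane and pumps protons as it does so. Complex I takes electrons from NADH through a flavin and a row of iron-sulfur clusters, complex II takes them from succinate, complex III hands them to cytochrome c, and complex IV reduces oxygen. Complexes I, III and IV are built from subunits of both nuclear and mitochondrial genes, and complex II from nuclear genes alone. Their nuclear genes are known to be served by shared transcription factors, among them NRF1, the ETS factor GABPA and YY1, together with coactivators of the PGC-1 family.

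In control cells the members were well expressed. Per kilobase of the canonical transcript, the median member stood at 52.3 CPM against 7.24 CPM per kilobase for the median of the 13502 genes with a known length. Medians per kilobase were 45.8 CPM for complex I, 28.7 for complex II, 75.3 for complex III and 96.9 for complex IV. COX4I1, the subunit of complex IV that carries much of its regulation, was the highest at 264 CPM per kilobase, followed by NDUFS5 at 225 and NDUFB9 at 212. NDUFV2 was the lowest at 1.21 CPM per kilobase and NDUFA13 the next at 2.06. Both overlap another gene on the same strand, where reads could have been left uncounted or split. The annotated canonical transcripts of NDUFS1, NDUFA9, NDUFV3, UQCRB, NDUFA5 and NDUFA10 are long, from 4855 to 11660 bases, which lowers the levels of these genes per kilobase. Of the 53 members, 30 overlap another annotated gene, 19 of them on the other strand, and 34 have pseudogenes named after them, up to 17 for a single member (COX6C).

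Sequence just upstream of the genes was read because the members share known regulators. RefSeq upstream windows on GRCh38.p14, 250 bases each and ending at the base before the gene start, matched 46 of the 53 members. The NRF1 motif, searched as GCGCA and GCGC with 1 base of any kind between them, was searched on both strands like the others and was in 9 of the 46 (19.6%), against 5.53% of 27305 windows of all genes and 10.1% of the 11067 windows of genes tested here. The ETS motif CCGGAAG was in 13 (28.3%), against 8.82% and 15.4%. The YY1 motif AAGATGG was in 2 (4.35%; NDUFA3 and COX7C), against 3.77% and 3.48%, and a form of it longer by 3 bases, which was scanned first, was in 0, against 0.359% and 0.569%. NRF1 and ETS matches did not overlap in any member, and only SDHD held both. Among the 18 windows of members called higher with siRNA A (test below), 1 held the NRF1, 5 the ETS and 2 the YY1 motif. For the 4 called lower these counts were 2, 1 and 0, and for the 24 not called 6, 7 and 0. A match describes the letters and not a bound site. Windows are shown, in the direction of the gene, for the members with the largest change with siRNA A in complexes I, III and IV and for NDUFA12, the lowest with siRNA B. Capitals mark the ETS match of UQCRH (40 to 46 bases before the start) and of COX6A1 (10 to 16 bases before it) and the NRF1 match of NDUFA12 (107 to 116 bases before it). NDUFB10 held no match. The windows lie at chr16:1959288-1959537 on the plus strand (NDUFB10), chr12:95003698-95003947 on the minus strand (NDUFA12), chr1:46303448-46303697 on the plus strand (UQCRH) and chr12:120437863-120438112 on the plus strand (COX6A1).
NDUFB10: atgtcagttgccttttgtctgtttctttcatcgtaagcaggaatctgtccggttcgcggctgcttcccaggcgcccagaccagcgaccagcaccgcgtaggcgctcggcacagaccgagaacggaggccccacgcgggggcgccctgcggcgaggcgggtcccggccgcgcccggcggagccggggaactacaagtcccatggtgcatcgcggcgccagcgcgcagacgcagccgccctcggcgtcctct
NDUFA12: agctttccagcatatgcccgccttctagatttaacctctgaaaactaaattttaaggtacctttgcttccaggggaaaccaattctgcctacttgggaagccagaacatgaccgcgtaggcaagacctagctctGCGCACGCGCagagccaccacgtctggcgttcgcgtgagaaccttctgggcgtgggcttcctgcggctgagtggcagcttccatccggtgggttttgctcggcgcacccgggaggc
UQCRH: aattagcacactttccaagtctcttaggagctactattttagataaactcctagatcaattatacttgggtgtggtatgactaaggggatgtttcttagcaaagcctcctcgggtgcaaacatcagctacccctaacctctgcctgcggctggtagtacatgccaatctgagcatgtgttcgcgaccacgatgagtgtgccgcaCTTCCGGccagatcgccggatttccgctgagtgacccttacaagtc
COX6A1: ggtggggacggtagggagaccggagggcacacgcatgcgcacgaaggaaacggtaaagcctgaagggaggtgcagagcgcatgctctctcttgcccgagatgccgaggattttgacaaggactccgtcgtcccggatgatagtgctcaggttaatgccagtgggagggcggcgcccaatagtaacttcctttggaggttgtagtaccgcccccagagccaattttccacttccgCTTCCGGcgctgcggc

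With siRNA A against control, 22 of the 53 members were higher and 4 were lower at a limma adjusted p under 0.05. The 22 were 41.5% of the members, against 23.9% of all genes tested, and the 4 were 7.55%, against 27.6%. In either direction the share was 49.1%, near the 51.4% of all genes. The median log2 fold change of the members was 0.34, against −0.02 over all genes, and the range ran from −0.74 to 1.005. With library totals alone the split turned, to 2 higher and 11 lower members with a median of −0.01, while the median of all genes moved to −0.34, where 9.05% of all genes were called higher and 47.0% lower. The members lay above the bulk of genes by 0.36 on the TMM scale and by 0.33 with library totals. These scales differ by 1 factor per library, which moves members and all genes alike, so these offsets could hardly differ. After the length and GC correction given below the offset was 0.21. Members have short transcripts, with a median of 758 bases against 3066 bases for all genes tested, and across 13502 genes the change with siRNA A correlated with log2 length (r = −0.14) and with GC content (r = −0.25). The correlation with log2 mean CPM was larger in size (r = 0.30). Members had a median control level of 49.2 CPM, against 22.4 CPM for those genes. Genes of like level were not compared, and the part of level in the members' change was not tested. Genes share libraries and are not independent replicates. After a correction for length and GC content, 16 members were higher and 5 lower, with a median of 0.18, where 25.5% and 28.3% of all genes were called. The count of higher members fell to 9 without control replicate 2, to 13 when control replicate 3 or siRNA A replicate 1 was left out, and to 14 without siRNA A replicate 2, and the median fell to 0.22 without control replicate 2. Deviations of same-numbered control and siRNA A libraries correlated at 0.65, 0.41 and 0.13, and whether the numbers mark pairs was not tested. With the number as a block 6 further members were called higher by limma, which were NDUFA1, NDUFS3, NDUFS4, CYC1, COX6B1 and COX6C (adjusted p = 0.0253 to 0.0416).

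**Figure D1:**
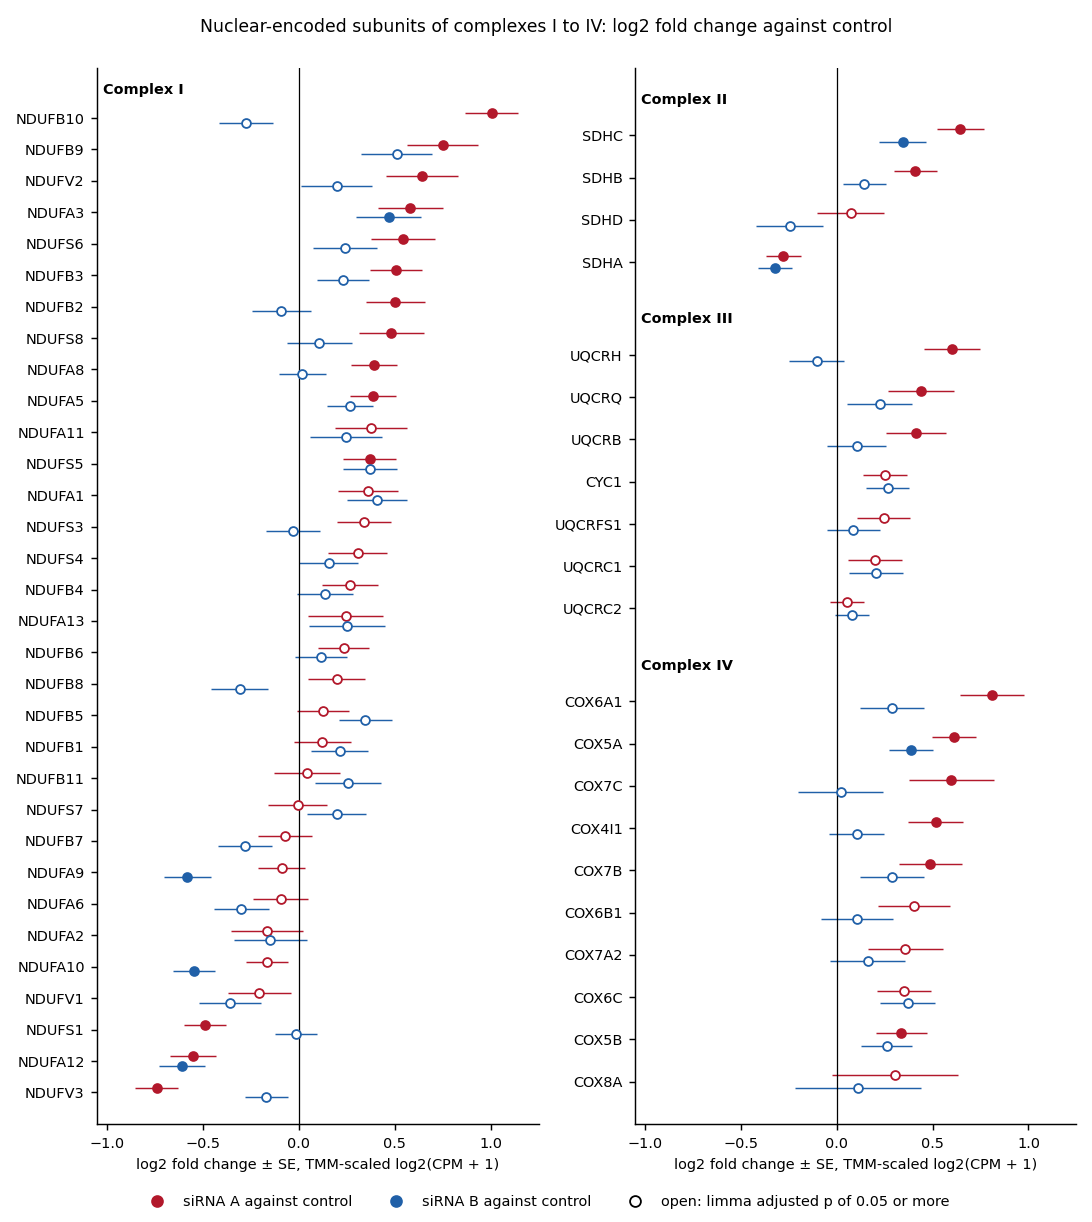
Log2 fold change ± SE (horizontal axis, TMM-scaled log2(CPM + 1)) of the 53 members, grouped by complex, for siRNA A (red) and siRNA B (blue) against the same 3 control libraries; filled points have a limma adjusted p under 0.05. Each of the 10 complex IV members lay above 0 with both siRNAs on this scale, whereas complex I ran from NDUFV3 at −0.74 to NDUFB10 at 1.005 with siRNA A; with library totals alone the median of all members with siRNA A was −0.01.

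With siRNA B against the same control libraries, 3 members were higher (NDUFA3, COX5A and SDHC) and 4 lower (NDUFA12, NDUFA9, NDUFA10 and SDHA). These are 5.66% and 7.55% of the members, against 15.6% and 18.3% of all genes tested (13.2% against 34.0% in either direction). The members' median was 0.14, against 0.0043 over all genes, and with library totals alone it was −0.07, with 0 higher (also 0 at an unadjusted p under 0.05 in limma; edgeR and DESeq2 on their own scaling gave 4 and 6) and 10 lower, where 6.90% and 29.7% of all genes were called. After the length and GC correction 5 were higher and 7 lower, against 17.9% and 20.0%, with a median of 0.02. The count of higher members was 9 without siRNA B replicate 2, 6 without control replicate 1, 1 without siRNA A replicate 1, which enters through the shared spread, and 0 without control replicate 2, control replicate 3, siRNA B replicate 1 or siRNA B replicate 3 (1, 4, 2 and 4 at an unadjusted p under 0.05). The median was 0.25 without siRNA B replicate 2, 0.22 without control replicate 1, and 0.058 to 0.082 without any 1 of the last 4 libraries named. The count called in either direction, 7, became 13 without siRNA B replicate 2, 4 without siRNA B replicate 3 and 3 without control replicate 3 or siRNA B replicate 1. In siRNA B replicate 2 the 53 members took 0.289% of reads, against 0.342% to 0.424% in the other 8 libraries. The 13 mitochondrially encoded subunits took 17.0% of reads in that library, against 9.67% to 14.2% in the others, and the part of this in the members' values was not tested.

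**Figure D2:**
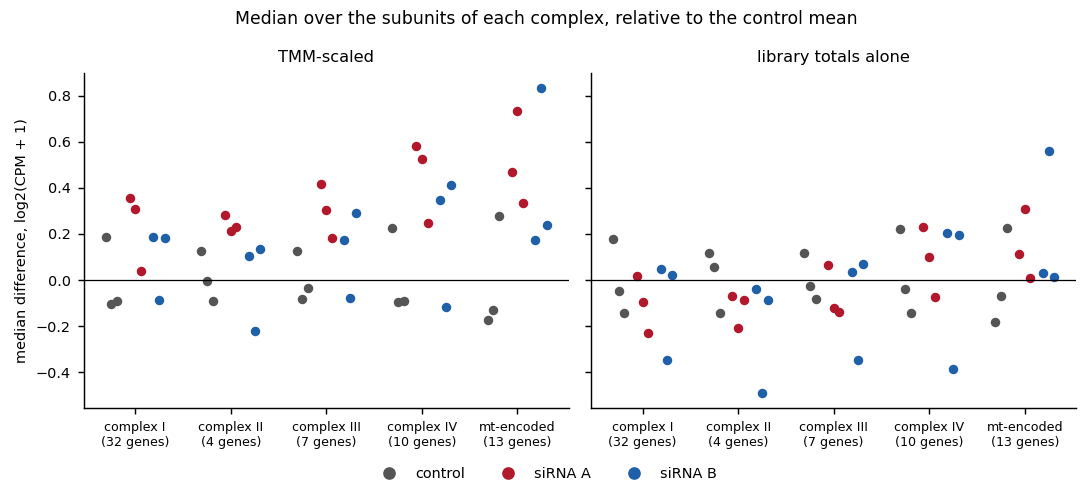
Median over the members of each complex, and over 13 mitochondrially encoded subunits, of the difference from the control mean in log2(CPM + 1), with 1 point per library, TMM-scaled on the left and with library totals alone on the right. On the TMM scale the complex IV medians of siRNA A libraries were 0.25 to 0.58 and those of control −0.10 to 0.23, whereas with library totals siRNA A ran from −0.07 to 0.23; siRNA B replicate 2 was the lowest siRNA B library for each of the 4 complexes on both scales.

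Complex I held both the highest and the lowest member with siRNA A. Of its 32 members 11 were higher and 3 lower, with a median of 0.25. These are 34.4% and 9.4%, against 23.9% and 27.6% of all genes tested (43.8% against 51.4% in either direction). With library totals 1 was higher and 9 were lower (median −0.07), or 3.1% and 28.1%, against 9.05% and 47.0%. After the length and GC correction 9 were higher and 4 lower, with a median of 0.061 (28.1% and 12.5%, against 25.5% and 28.3%). NDUFB10, an accessory subunit at the far end of the membrane arm, was at 112, 83.3 and 113 CPM in control, at 234, 205 and 180 CPM with siRNA A and at 75.8, 87.7 and 88.9 CPM with siRNA B. It rose by 1.005 ± 0.139 with siRNA A (adjusted p = 0.000137), and all 3 siRNA A libraries lay above all others. With siRNA B the difference from control was −0.28 ± 0.14 (adjusted p = 0.147), with overlapping groups. It was called lower when scaled by library totals (−0.49, adjusted p = 0.00962), and also on leaving out control replicate 2 (−0.44, adjusted p = 0.0318). NDUFB9, another accessory subunit of that arm, was at 167, 141 and 132 CPM in control, at 272, 259 and 212 CPM with siRNA A and at 232, 149 and 261 CPM with siRNA B. It rose by 0.75 ± 0.19 with siRNA A (adjusted p = 0.00551), while the siRNA B value of 0.51 ± 0.19 missed the threshold (adjusted p = 0.0525), with siRNA B replicate 2 among the controls, and was called in 9 of 20 alternatives, among them edgeR, DESeq2, the replicate block (adjusted p = 0.0225) and the length and GC correction (adjusted p = 0.021). NDUFB9 overlaps TATDN1 and MTSS1 on the other strand, and the siRNA A call of NDUFB9 was lost with library totals alone.

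NDUFV3, an accessory subunit of the NADH-oxidising module, was at 34.0, 32.5 and 29.1 CPM in control and at 18.8, 18.5 and 18.5 CPM with siRNA A. The siRNA B libraries held 26.3, 26.6 and 32.0 CPM. It fell by 0.74 on the log2 scale with siRNA A (SE 0.11, adjusted p = 0.000232), with separate groups, and with siRNA B the difference was −0.17 ± 0.11 (adjusted p = 0.262). With library totals alone NDUFV3 was called lower with siRNA B too (−0.38, limma adjusted p = 0.0325). NDUFA12, an accessory subunit of the matrix arm, was at 30.6, 26.5 and 30.8 CPM in control, at 22.1, 18.7 and 18.3 CPM with siRNA A and at 17.6, 17.9 and 21.0 CPM with siRNA B. It was lower with both, by −0.55 ± 0.12 (adjusted p = 0.00254) and −0.61 ± 0.12 (adjusted p = 0.00245), and every library of either siRNA was below every control library. The calls of NDUFB10, NDUFV3 and NDUFA12 against control held in all 20 alternatives tried, and none of these genes overlaps another annotated gene.

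NDUFA9, an accessory subunit of the matrix arm, was at 23.4, 25.1 and 21.7 CPM in control, at 22.1, 22.0 and 21.6 CPM with siRNA A and at 17.4, 12.8 and 16.1 CPM with siRNA B. The siRNA B libraries were the lowest of the 9, with a change of −0.58 ± 0.12 (adjusted p = 0.00392), and the siRNA A change was −0.09 ± 0.12 (adjusted p = 0.568). With library totals alone NDUFA9 was called lower with siRNA A too (−0.44, limma adjusted p = 0.0208). NDUFA10, an accessory subunit of the membrane arm that was singled out after its values were seen, was at 101, 89.7 and 95.5 CPM in control, at 85.0, 88.8 and 80.7 CPM with siRNA A and at 70.2, 55.8 and 69.6 CPM with siRNA B. Its siRNA B change was −0.55 ± 0.11 (adjusted p = 0.00263) and its siRNA A change −0.17 ± 0.11 (adjusted p = 0.223), although the siRNA A and control libraries did not overlap. With library totals alone NDUFA10 was also called lower with siRNA A (−0.53, limma adjusted p = 0.00254). NDUFA3, a small subunit of the membrane arm, was at 38.1, 31.0 and 30.2 CPM in control, at 56.5, 56.1 and 38.9 CPM with siRNA A and at 45.1, 38.9 and 55.4 CPM with siRNA B. It was higher with both, by 0.58 ± 0.17 (adjusted p = 0.0128) and 0.47 ± 0.17 (adjusted p = 0.0496). The siRNA B call was lost in 7 of 20 alternatives, among them library totals alone and leaving out control replicate 2, control replicate 3, siRNA A replicate 1, siRNA B replicate 1 or siRNA B replicate 3, and the siRNA A call was lost with library totals and when either control replicate 3 or siRNA A replicate 1 was left out. NDUFA3 overlaps TFPT on the other strand.

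**Figure D3:**
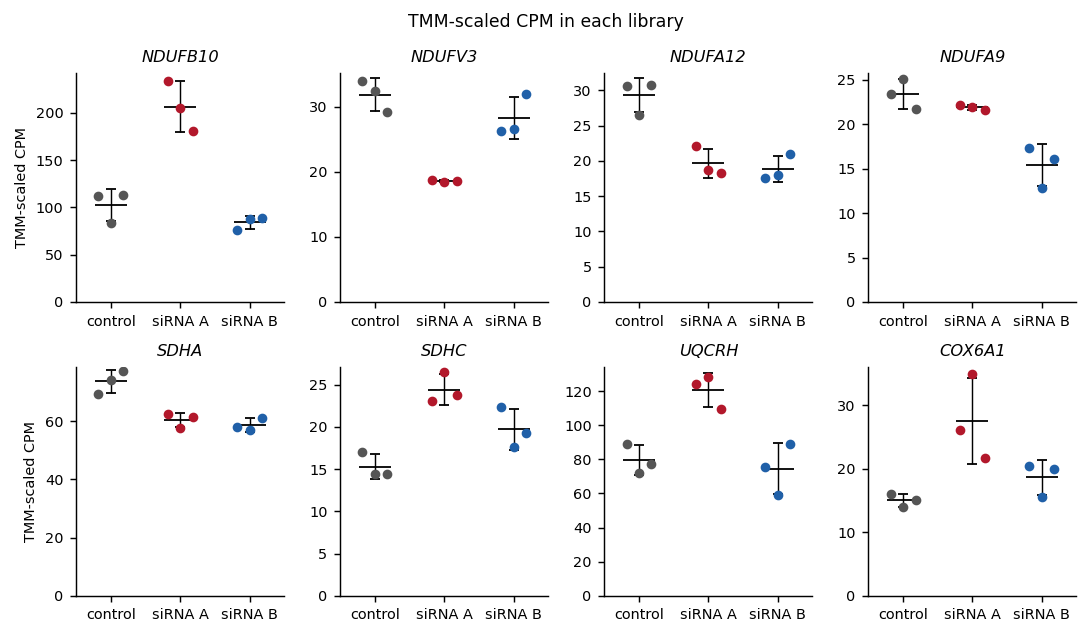
TMM-scaled CPM of 8 members in each library (points, 3 per group), with the mean (line) and SD (bar) of each group; vertical axes start at 0. NDUFB10 and UQCRH were higher in siRNA A libraries than in those of control or siRNA B, and NDUFA12 and SDHA were lower with both siRNAs. NDUFA9 was called lower with siRNA B and not with siRNA A on this scale. With library totals alone NDUFA9 was called lower with siRNA A too, and UQCRH and SDHC were no longer called with siRNA A.

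Iron-sulfur subunits carry the electrons inside complexes I, II and III. Of 7 measured, 3 were higher (NDUFV2, NDUFS8 and SDHB) and 1 was lower (NDUFS1) with siRNA A, with a median of 0.24. These are 42.9% and 14.3%, against 23.9% and 27.6% of all genes tested (57.1% against 51.4% in either direction). With library totals 0 were higher and 2 lower (28.6%, against 47.0% of all genes). With siRNA B 0 were called by limma, edgeR or DESeq2, and 1, NDUFV1, by limma at an unadjusted p under 0.05. Of all genes 34.0% were called by limma with siRNA B. NDUFV1 was called lower with siRNA B under library totals alone and with the replicate block. NDUFS1, the largest core subunit, was at 78.1, 91.6 and 70.9 CPM in control, at 55.2, 53.7 and 60.9 CPM with siRNA A and at 81.3, 79.2 and 76.1 CPM with siRNA B. It fell by 0.49 on the log2 scale with siRNA A (SE 0.11, adjusted p = 0.00297), in all 20 alternatives, whereas siRNA B libraries lay within the control range (−0.02 ± 0.11, adjusted p = 0.925). NDUFS8, which holds clusters on the way to the quinone site, was at 68.8, 52.4 and 54.3 CPM in control, at 101, 79.1 and 68.1 CPM with siRNA A and at 66.0, 51.1 and 72.7 CPM with siRNA B. Its siRNA A change of 0.48 ± 0.17 passed the test (adjusted p = 0.0307) although the groups overlapped, and the call was lost with library totals and without control replicate 2, control replicate 3, siRNA A replicate 1 or siRNA A replicate 2.

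NDUFS7, which holds the cluster next to the quinone site, was at 31.9 to 38.0 CPM in control, 29.5 to 40.8 CPM with siRNA A and 31.9 to 45.1 CPM with siRNA B, and its changes were −0.0057 ± 0.15 and 0.20 ± 0.15 (adjusted p = 0.979 and 0.348). NDUFV1, which binds NADH and the flavin, was at 75.4 to 89.8, 65.1 to 77.8 and 46.5 to 74.8 CPM, with changes of −0.21 ± 0.16 and −0.36 ± 0.16 (adjusted p = 0.311 and 0.110). With library totals alone NDUFV1 was called lower with both siRNAs (−0.57 each, adjusted p = 0.016 and 0.0248), and with the replicate block its siRNA B change had an adjusted p of 0.0368. NDUFV2, the partner of NDUFV1, was counted at 0.8 to 1.6 CPM in control, 1.6 to 2.6 CPM with siRNA A and 1.1 to 1.5 CPM with siRNA B. This was 15 to 48 reads per library. The siRNA A change of NDUFV2 was 0.64 ± 0.19 (adjusted p = 0.0133), a value understated by the added 1 CPM, and its call was lost with library totals, with the length and GC correction and when either control replicate 2 or siRNA A replicate 3 was left out. UQCRFS1, the Rieske protein of complex III, was at 46.8 to 53.7, 53.1 to 65.8 and 42.4 to 60.2 CPM, with changes of 0.24 ± 0.14 and 0.09 ± 0.14 (adjusted p = 0.156 and 0.660).

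Complex II, which is also succinate dehydrogenase of the citric acid cycle, was called in both directions with siRNA A. SDHC and SDHB were higher and SDHA was lower (median 0.24, and −0.12 with library totals, where SDHA alone was called). The 3 called are 75% of its genes, against 51.4% of all genes tested. With library totals 25% were lower, against 47.0%. SDHA, the flavoprotein that oxidises succinate, was at 69.5, 74.2 and 77.3 CPM in control, at 62.4, 57.8 and 61.4 CPM with siRNA A and at 57.9, 57.0 and 61.3 CPM with siRNA B. It was lower with both, by −0.28 ± 0.09 (adjusted p = 0.0222) and −0.32 ± 0.09 (adjusted p = 0.0171), without overlap with control. The siRNA A call of SDHA did not hold when either control replicate 3 or siRNA A replicate 2 was left out, and the siRNA B call when either control replicate 3 or siRNA B replicate 1 was. SDHB, the iron-sulfur subunit, was at 124, 116 and 107 CPM in control, at 154, 164 and 145 CPM with siRNA A and at 137, 109 and 139 CPM with siRNA B. It rose by 0.41 ± 0.11 with siRNA A (adjusted p = 0.0100), a call lost with library totals and with the length and GC correction, and the siRNA B value was 0.14 ± 0.11 (adjusted p = 0.353).

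SDHC, a membrane anchor of complex II, was at 17.0, 14.5 and 14.4 CPM in control, at 23.1, 26.5 and 23.7 CPM with siRNA A and at 22.3, 17.6 and 19.3 CPM with siRNA B. It was higher with both, by 0.64 ± 0.12 (adjusted p = 0.00109) and 0.34 ± 0.12 (adjusted p = 0.0476). Library totals alone ended both calls, and the siRNA B call was lost in 12 of 20 alternatives, among them leaving out control replicate 2 or 3, siRNA A replicate 1 or 3, or siRNA B replicate 1 or 3. SDHD, the other anchor, was at 45.9, 39.7 and 35.2 CPM in control, at 44.7, 38.0 and 44.2 CPM with siRNA A and at 39.0, 24.3 and 40.1 CPM with siRNA B, with changes of 0.07 ± 0.18 and −0.25 ± 0.18 (adjusted p = 0.749 and 0.307). After the length and GC correction, with or without the replicate block, SDHD was called lower with siRNA B (−0.45, adjusted p = 0.0339 without the block), though not with the median protein-coding length in that correction (adjusted p = 0.0758).

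Complex III gave 3 higher and 0 lower of 7 members with siRNA A (UQCRH, UQCRQ and UQCRB), with a median of 0.25. The 3 are 42.9%, against 23.9% of all genes tested called higher and 51.4% in either direction. With library totals the median was −0.12, and 0 were higher and 1, UQCRC2, was lower (14.3%, against 47.0% of all genes). UQCRH, the hinge protein where cytochrome c docks, was at 89.1, 71.8 and 77.3 CPM in control, at 124, 128 and 110 CPM with siRNA A and at 75.4, 59.1 and 89.1 CPM with siRNA B. It rose by 0.60 ± 0.14 with siRNA A (adjusted p = 0.00461), with siRNA A libraries above all others, a call lost with library totals alone. The siRNA B value of UQCRH was −0.10 ± 0.14 (adjusted p = 0.612), and 0 complex III members were called with siRNA B by limma, edgeR or DESeq2, with 1 at an unadjusted p under 0.05 by each. Of all genes 34.0% were called by limma with siRNA B. After the length and GC correction CYC1 (0.37, adjusted p = 0.00386) and UQCRC1 were called higher with siRNA B, and with the replicate block CYC1 was (0.27, adjusted p = 0.0392). The core proteins UQCRC1 and UQCRC2 were at 114 to 154 and at 196 to 224 CPM over all libraries, and neither was called with either siRNA by limma on the TMM scale without that correction. With it, UQCRC1 was higher by 0.30 with each siRNA (adjusted p = 0.0243 and 0.0323).

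Complex IV had the largest median of the 4 complexes with siRNA A on the TMM scale and with library totals, though not after the length and GC correction, where complex III had 0.30 and complex IV 0.26. On the TMM scale the complex IV median was 0.45, and 6 of its 10 members were higher (COX6A1, COX5A, COX7C, COX4I1, COX7B and COX5B). These are 60%, against 23.9% of all genes tested called higher and 51.4% in either direction. No complex IV member was called lower with either siRNA by limma, edgeR or DESeq2, or at an unadjusted p under 0.05. With library totals the median was 0.08, with COX6A1 the single member called higher, and with the length and GC correction 3 were called higher. These are 10% and 30%, against 9.05% and 25.5% of all genes. COX6A1, a subunit with a separate isoform in heart and muscle, was at 16.0, 13.9 and 15.2 CPM in control, at 26.2, 35.0 and 21.6 CPM with siRNA A and at 20.5, 15.5 and 20.0 CPM with siRNA B. It rose by 0.81 ± 0.17 with siRNA A (adjusted p = 0.00179) in all 20 alternatives, and the siRNA B value was 0.29 ± 0.17 (adjusted p = 0.208). COX6A1 overlaps an unnamed gene on the same strand and has 7 named pseudogenes.

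COX5A, a subunit on the matrix side of complex IV, was at 104, 87.3 and 88.9 CPM in control, at 152, 147 and 131 CPM with siRNA A and at 127, 108 and 134 CPM with siRNA B. It rose with both, by 0.61 ± 0.11 (adjusted p = 0.000962) and 0.39 ± 0.11 (adjusted p = 0.0211), and no control library reached the lowest siRNA library. Both calls were lost with library totals, and the siRNA B call also without control replicate 2, control replicate 3, siRNA B replicate 1 or siRNA B replicate 3. The lowest complex IV value with siRNA A was that of COX8A, 0.31 ± 0.33, where control replicate 3 and siRNA B replicate 2 stood at 23.4 and 23.1 CPM and the other 7 libraries at 41.0 to 57.6 CPM.

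The siRNAs were then compared with each other, which asks whether they moved the members alike. With siRNA A 9 members were higher than with siRNA B (NDUFB10, UQCRH, NDUFB2, COX6A1, NDUFB8, NDUFA9, COX4I1, NDUFA10 and NDUFA8) and 2 were lower (NDUFV3 and NDUFS1). These are 17.0% and 3.77% of the members, against 17.6% and 19.5% of all genes tested (20.8% against 37.1% in either direction). The median difference was 0.20, against −0.01 over all genes, and it was 0.04 with library totals (2 higher and 2 lower, against 10.2% and 27.0% of all genes) and also 0.04 without siRNA B replicate 2. The count of higher members was 5 when siRNA A replicate 1 or siRNA B replicate 2 was left out and 4 without siRNA A replicate 2. NDUFB10 differed by 1.28 ± 0.14 (adjusted p = 6.51e-05), UQCRH by 0.70 ± 0.14 (adjusted p = 0.00299), NDUFV3 by −0.57 ± 0.11 (adjusted p = 0.00219) and NDUFS1 by −0.47 ± 0.11 (adjusted p = 0.00581), and these calls held in all 20 alternatives. NDUFA9 differed by 0.49 ± 0.12 (adjusted p = 0.00917), NDUFA10 by 0.38 ± 0.11 (adjusted p = 0.0169) and COX6A1 by 0.52 ± 0.17 (adjusted p = 0.0279), all lost with library totals. The COX6A1 difference was also lost without siRNA A replicate 1, siRNA A replicate 2 or siRNA B replicate 2, and that of NDUFA10 without siRNA A replicate 2.

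Taking each siRNA against control, 3 members were higher and 2 were lower with both, while 10.2% and 11.7% of all genes tested were, and the comparisons share their 3 control libraries. Calls with siRNA A alone numbered 21, and of these 8 also differed between the siRNAs, against 27.8% and 17.7% of all genes tested. The 2 calls with siRNA B alone, NDUFA9 and NDUFA10, both differed between the siRNAs, against 10.3% of all genes called with siRNA B alone and 6.61% that also differed. With library totals alone both genes were also called lower with siRNA A. A further 25 members were called with neither siRNA, as were 38.3% of all genes. On the TMM scale with all libraries 0 members were called in opposite directions by limma, edgeR or DESeq2, also at an unadjusted p under 0.05, but NDUFB10 was with library totals alone and without control replicate 2, as given above. Groups without overlap in TMM-scaled CPM were counted too. All siRNA A libraries lay above all control libraries for 19 members and below for 5, against 27.6% and 31.9% of all genes (35.8% and 9.43% of members). For siRNA B these counts were 5 and 6, against 22.5% and 25.1%.

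**Figure D4:**
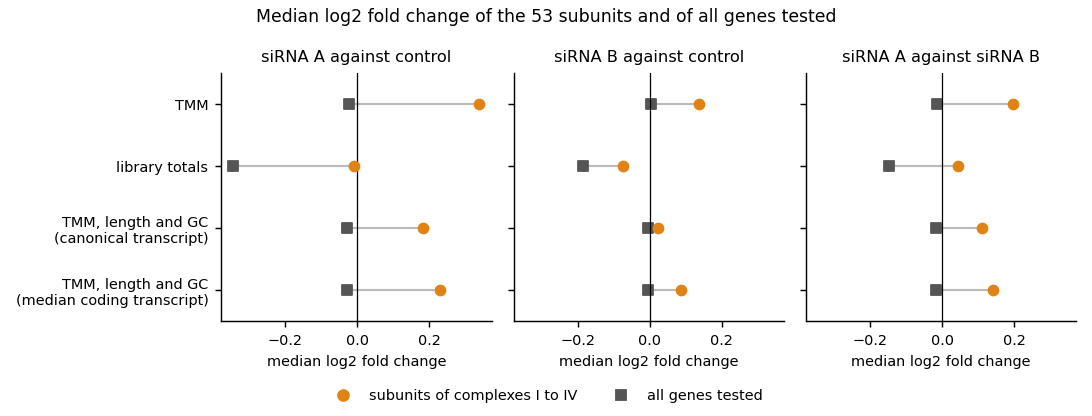
Median log2 fold change (horizontal axis) of the 53 members (orange circles) and of all genes tested (grey squares) for the 3 comparisons, on the TMM scale, with library totals alone, and on the TMM scale after correction for length and GC content with either of 2 transcript lengths. Members lay to the right of all genes in each row, by 0.36, 0.33, 0.21 and 0.26 for siRNA A against control, while the sign of their own median turned with library totals (−0.01 for siRNA A and −0.07 for siRNA B).

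A list of 9 further genes of the chain, not among the 54, held mostly subunits of the same complexes. It also held CYCS, whose product cytochrome c takes electrons from complex III and is not a subunit. The largest change on this list was that of NDUFAB1, the mitochondrial acyl carrier protein, which is also a subunit of complex I. NDUFAB1 was at 69.9, 52.6 and 63.8 CPM in control, at 20.5, 20.0 and 17.7 CPM with siRNA A and at 26.1, 24.9 and 27.1 CPM with siRNA B. The siRNA A change was −1.62 ± 0.12 (adjusted p = 2.82e-06) and that with siRNA B −1.21 ± 0.12 (adjusted p = 3.42e-05), each larger in size than for any of the 53 members. Of the 9 genes on this list 5 were higher with siRNA A, led by CYCS, the gene of cytochrome c, with 1.14 ± 0.11 (adjusted p = 1.25e-05), and 3 with siRNA B, led by NDUFC1 with 0.51 ± 0.13 (adjusted p = 0.0120). The higher shares are 55.6% and 33.3%, against 23.9% and 15.6% of all genes tested. After the length and GC correction 2 of the 9 were higher with siRNA A (CYCS and NDUFC1) and 1 with siRNA B (NDUFC1). These are 22.2% and 11.1%, against 25.5% and 17.9% of all genes. NDUFAB1 was called lower with each siRNA after that correction too. With library totals 1 of the 9 was higher (CYCS) and 2 lower with siRNA A, and with siRNA B 0 were higher and 1 (NDUFAB1) was lower in limma, with 1 higher and 2 lower at an unadjusted p under 0.05. CYCS was at 161, 147 and 131 CPM in control, at 322, 334 and 314 CPM with siRNA A and at 200, 163 and 188 CPM with siRNA B.

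The 13 mitochondrially encoded subunits had 6 higher and 0 lower members with siRNA A and 2 higher and 0 lower with siRNA B, with medians of 0.51 and 0.41. The higher shares are 46.2% and 15.4%, against 23.9% and 15.6% of all genes tested. With library totals 1 and 2 were higher (7.69% and 15.4%, against 9.05% and 6.90%), with medians of 0.14 and 0.20. After the length and GC correction 0 were called with either siRNA by limma (0 and 2 at an unadjusted p under 0.05). At an unadjusted p, and by edgeR or DESeq2, 0 were lower on the TMM scale. MT-ND6, encoded on the light strand, had the largest change with both, 0.90 ± 0.24 (adjusted p = 0.00739) and 0.85 ± 0.24 (adjusted p = 0.0155). ATP synthase, which uses the proton gradient, had 10 of 18 genes higher and 0 lower with siRNA A (median 0.43, led by ATP5F1E with 0.84 ± 0.24, adjusted p = 0.0117) and 3 higher with siRNA B (median 0.23, led by ATP5F1C with 0.48 ± 0.11, adjusted p = 0.00560). The higher shares of ATP synthase genes are 55.6% and 16.7%, against 23.9% and 15.6% of all genes tested. With library totals 0 ATP synthase genes were higher with siRNA A, also at an unadjusted p under 0.05, and 3 were lower (median 0.07). Those 3 are 16.7%, against 47.0% of all genes. After the length and GC correction 5 ATP synthase genes were higher and 2 lower with siRNA A (median 0.16). These are 27.8% and 11.1%, against 25.5% and 28.3% of all genes. For siRNA B 3 were higher and 1 lower there, or 16.7% and 5.56%, against 17.9% and 20.0%.

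Genes that build the complexes moved in both directions. Of the 16 assembly genes of complex I, 5 were higher and 2 lower with siRNA A, and 3 were higher and 3 lower with siRNA B. The assembly factor NDUFAF3 had the largest rise with both (0.81 ± 0.17 and 0.68 ± 0.17, adjusted p = 0.00222 and 0.0106) and NDUFAF1 the largest fall with both (−0.89 ± 0.16 and −0.54 ± 0.16, adjusted p = 0.000731 and 0.0206). Complex II assembly genes were lower in 3 of 4 cases with siRNA A, led by SDHAF4 (−1.07 ± 0.16, adjusted p = 0.000236), and in 2 with siRNA B, led by SDHAF2, which helps attach the flavin to SDHA (−0.90 ± 0.23, adjusted p = 0.0106), and 0 were higher by limma, edgeR or DESeq2, also at an unadjusted p. Complex III assembly genes were called in 0 of 6 cases with siRNA A by limma, edgeR or DESeq2, also at an unadjusted p (5 were lower with library totals), and 2 were lower with siRNA B, UQCC2 by −0.87 ± 0.23 (adjusted p = 0.0123) and BCS1L, which inserts the Rieske protein, by −0.51 ± 0.11 (adjusted p = 0.00396). The shares called with siRNA A and siRNA B were 43.8% and 37.5% for complex I assembly. They were 75% and 50% for complex II assembly and 0% and 33.3% for complex III assembly. Of all genes tested 51.4% and 34.0% were called. Of 22 complex IV assembly genes tested, 5 were higher and 2 lower with siRNA A and 2 higher and 2 lower with siRNA B. These are 31.8% and 18.2% called, against the same 51.4% and 34.0% of all genes. LRPPRC, which stabilises mitochondrial mRNAs, had the largest rise with siRNA A (0.70 ± 0.10, adjusted p = 0.000176) and COX17, a copper chaperone, the largest fall (−0.47 ± 0.17, adjusted p = 0.0402). With siRNA B these were CMC1 (0.48 ± 0.10, adjusted p = 0.00315) and COX10, which takes part in making the heme of complex IV (−0.87 ± 0.10, adjusted p = 9.55e-05). With library totals the rises of NDUFAF3 and CMC1 were not called, and the splits of the larger lists turned. Complex I assembly then had 1 higher and 7 lower with siRNA A, and 0 higher and 6 lower with siRNA B (2 higher at an unadjusted p under 0.05 in limma). Complex IV assembly had 1 higher and 5 lower with siRNA A, and 0 higher and 5 lower with siRNA B (1 higher at an unadjusted p). The complex II assembly genes lower were 4 and 3 on that scale. With library totals 9.05% of all genes were called higher and 47.0% lower with siRNA A, and 6.90% and 29.7% with siRNA B. Of complex I assembly genes 43.8% and 37.5% were lower there, and of complex IV assembly genes 22.7% with each siRNA.

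The citric acid cycle feeds the chain. Of its 13 genes other than those of complex II, 4 were higher and 2 lower with siRNA A and 1 was higher and 5 lower with siRNA B. Higher and lower shares were 30.8% and 15.4% with siRNA A, against 23.9% and 27.6% of all genes tested. For siRNA B they were 7.69% and 38.5%, against 15.6% and 18.3%. In either direction 46.2% were called with each siRNA, against 51.4% and 34.0%. CS, citrate synthase, was at 187, 206 and 178 CPM in control, at 245, 297 and 252 CPM with siRNA A and at 146, 119 and 142 CPM with siRNA B, and was called in opposite directions, 0.47 ± 0.12 (adjusted p = 0.00515) and −0.49 ± 0.12 (adjusted p = 0.00708). With library totals the rise of CS with siRNA A was 0.10 and was not called. On that scale 0 of the 13 genes were higher with either siRNA in limma, also at an unadjusted p under 0.05. There 7 were lower with siRNA A and 5 with siRNA B, or 53.8% and 38.5%, against 47.0% and 29.7% of all genes. OGDH, of the oxoglutarate dehydrogenase complex, fell most with both (−0.56 ± 0.16 and −1.09 ± 0.16, adjusted p = 0.0106 and 0.000366), and DLD, a subunit shared by such complexes, was the 1 gene higher with siRNA B (0.28 ± 0.09, adjusted p = 0.0350). After the length and GC correction OGDH was called lower with siRNA B only, and DLD was not called higher. The genes then lower with siRNA A were SUCLG2 and FH, and those higher with siRNA B were MDH2 and IDH3G.

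Regulators of mitochondrial gene expression were also listed, and 11 of 12 were tested. With siRNA A 2 were higher and 4 lower, and with siRNA B 1 was higher and 4 lower. Higher and lower shares were 18.2% and 36.4% with siRNA A, against 23.9% and 27.6% of all genes tested. For siRNA B they were 9.09% and 36.4%, against 15.6% and 18.3%. In either direction 54.5% and 45.5% were called, against 51.4% and 34.0%. YY1 had the largest rise with siRNA A (0.59 ± 0.11, adjusted p = 0.000817) and TFB1M, a methyltransferase of mitochondrial ribosomal RNA, the largest fall (−0.86 ± 0.11, adjusted p = 8.5e-05). With siRNA B the ETS factor GABPA rose by 0.51 ± 0.13 (adjusted p = 0.0118) and the coactivator PPARGC1B fell most (−0.92 ± 0.13, adjusted p = 0.000359). With library totals 0 were higher with either siRNA in limma (0 and 1 at an unadjusted p under 0.05), 6 were lower with siRNA A and 5 with siRNA B. The lower shares are 54.5% and 45.5%, against 47.0% and 29.7% of all genes. On that scale neither YY1 with siRNA A (0.22) nor GABPA with siRNA B (0.30) was called.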

How the data were processed

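RNA-seq was performed on 9 libraries of HCT116 cells (3 per group; per the labels, oligo-dT purified total RNA, single-end reads of 50 bases). The authors deposited 1 table of CPM values, reads per gene over the library total, without other scaling. The submitters' processing notes name TopHat2, HTSeq, GRCh37 and hg19; the use of strand was not given in the sources used here. All values (100%, within 0.0001 of a whole read) gave whole reads, so counts were recovered from the deposited CPM. Replicates came from separate libraries, and p-values measure the spread between them.

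Gene identifiers without version were matched to GENCODE lifted to GRCh37 (14871 of 15354 matched). Main test: limma 3.58.1 (R 4.3.3) on log2(CPM + 1) after TMM scaling (edgeR 4.0.16), with a trend, over the 13893 genes reaching 1 CPM in 3 or more libraries, with all 9 libraries in 1 model, Benjamini-Hochberg adjusted, threshold 0.05. Adding 1 CPM shrinks the fold changes of low genes. DESeq2 1.42.0 and edgeR's quasi-likelihood test on the recovered counts, other scalings, filters, a replicate block, length and GC corrections (splines with 5 degrees of freedom) and each library left out were alternatives. The correction with the median length of protein-coding transcripts was added after seeing the data. The fits were tested on simulated data. Upstream windows came from RefSeq (GRCh38.p14).

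Members and gene lists were chosen with earlier results of these data known, so no list was tested as a set and lists are described by counts and medians beside those of all genes. Named members are, per siRNA, those with the largest called change in each direction (2 per direction for complex I, 1 for complexes III and IV), all complex II members and the iron-sulfur subunits; other lists name their largest called change in each direction. Libraries of a group correlated across genes with r of 0.983 to 0.994 and differed beyond sampling noise. Deviations of same-numbered libraries correlated at 0.65, 0.41 and 0.13 between control and siRNA A. The labels do not pair them, and libraries of different number were not compared, so the block rests on the number alone.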

Additional observations from a re-analysis of the deposited data

How the results depend on the processing

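With library totals alone the members called with siRNA A against control fell from 26 to 13 (2 higher, 11 lower, median −0.011), with siRNA B the counts were 0 higher and 10 lower (median −0.074), and between the siRNAs 4 were called (2 higher). With siRNA B against control the count of higher members was 1 with no filter on low values and 6 with DESeq2, and the length and GC correction gave 12 called (5 higher, 7 lower) or, with the median protein-coding length, 11 (6 higher). Between control and siRNA B same-numbered libraries correlated at 0.17, 0.44 and −0.39, and between the siRNAs at 0.20, 0.44 and 0.02. Whether the numbers mark pairs was not tested for these groups either. The replicate block gave 15 called with siRNA B (9 higher), and the replicate block with the length and GC correction 15 (8 higher, 7 lower), and 7 lower with siRNA A. The replicate block alone gave 28 higher and 4 lower with siRNA A and 13 higher and 2 lower between the siRNAs. Leaving out each library in turn gave 13 to 32 called and 9 to 28 higher with siRNA A, 3 to 13 called and 0 to 9 higher with siRNA B, and 6 to 13 called and 4 to 11 higher between the siRNAs, with medians of 0.22 to 0.43, 0.058 to 0.25 and 0.041 to 0.29. The cause of these shifts was not tested. Of the calls of the 53 members with siRNA A or siRNA B against control, or between them, only that of COX5B with siRNA A changed sign in any of the 20 alternatives, to −0.03 with library totals alone, where it was not called. Depth limits NDUFV2, which had 15 to 48 reads per library, and NDUFA13, which had 14 to 34.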
